A study of Rattus norvegicus with 9 samples.

Results

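The 9 genes described here make, break down or control the polyamines of the cell: Odc1, Amd1, Srm, Sms, Sat1, Smox, Oaz1, Oaz2 and Azin1. They were taken from the array annotation by symbol, and all 13 probe sets that carry 1 of these symbols alone were used, of 31042 probe sets in all; the array names 14217 genes in this way. Sms and Oaz2 had 2 probe sets each, Azin1 had 3, and the other genes had 1. A further probe set annotated to Smox together with a second gene was left out.

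The tissue was gastrocnemius muscle of male Wistar rats of 250 g, with 1 array per animal and 3 animals in each of 3 groups. For 7 days an implanted pump delivered dexamethasone (0.7 mg/kg/day) together with testosterone, dexamethasone alone at that dose, or propylene glycol, the solvent of both drugs, as vehicle. Dexamethasone is a synthetic glucocorticoid that causes muscle loss, and testosterone is an androgen. The testosterone dose stands as 28 mg/kg/day in the sample labels and as 20 mg/kg/day in the series design, and no group that received testosterone alone was analysed here. The questions were what the glucocorticoid does to muscle transcripts and whether the androgen alters it.

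Polyamines are small, positively charged molecules that bind RNA and are needed for protein synthesis and growth. Ornithine decarboxylase makes putrescine, and spermidine synthase and spermine synthase then each add a group that S-adenosylmethionine decarboxylase supplies. Breakdown runs through acetylation and oxidation, and antizymes mark ornithine decarboxylase for degradation. Androgens are known to raise ornithine decarboxylase and S-adenosylmethionine decarboxylase transcripts in rodent tissues.

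No probe set of the 9 genes passed the test in any comparison, but their group differences were unequal in sign. In dexamethasone-treated muscle Srm was 2.2-fold higher than in vehicle in arrays that did not overlap, and the mean of Sat1 was 2.19-fold higher in arrays that did. By their brightest probe sets Azin1, Odc1 and Sms were lower in arrays that did not overlap, and the mean of Amd1 was lower in arrays that did. With testosterone added, Amd1 and the brighter probe set of Sms were higher than under dexamethasone alone in all 3 animals. The second probe set of Sms overlapped there, and the mean of Srm lay between those of the other groups. Values are normalized log2 signals, so that a difference of 1 is a doubling. Each test is limma's moderated test over 18625 probe sets with Benjamini-Hochberg adjustment and a threshold of 0.05.

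Of the 13 probe sets, 12 were bright enough to be tested, and the exception was the third one of Azin1. Between dexamethasone and vehicle 0 of the 12 passed, against 1.05% of all probe sets tested (0.569% higher, 0.483% lower). In the same comparison 5 of the 12 had an unadjusted p under 0.05, against 15.5% of all. Between dexamethasone plus testosterone and dexamethasone 0 of the 12 passed, against 0.113% of all (0.0698% higher, 0.043% lower), and 3 had an unadjusted p under 0.05, against 11% of all. Between dexamethasone plus testosterone and vehicle 0 of the 12 passed, against 0% of all, and 2 had an unadjusted p under 0.05, against 6.12% of all. The 3 comparisons share arrays, so their values are not independent of one another.

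The median log2 change of the 12 was -0.51 between dexamethasone and vehicle, where the median over all probe sets tested was 0.01. It was 0.13 between dexamethasone plus testosterone and dexamethasone, and 0.00 over all. It was -0.30 between dexamethasone plus testosterone and vehicle, and 0.02 over all. With 1 probe set per gene, the brightest, the medians of the 9 genes in these comparisons were -0.36, 0.14 and -0.01. Arrays that do not overlap were counted as well. Between dexamethasone and vehicle 6 of the 12 did not overlap, 1 higher and 5 lower, against 22.9% of all (12.5% higher, 10.4% lower). Between dexamethasone plus testosterone and dexamethasone 2 of the 12 did not overlap, both higher, against 14.6% of all (7.24% higher, 7.35% lower). Between dexamethasone plus testosterone and vehicle 1 was higher and 2 were lower in every array, against 13.3% of all (7.53% higher, 5.79% lower). The medians describe the group and carry no test.

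**Figure D1:**
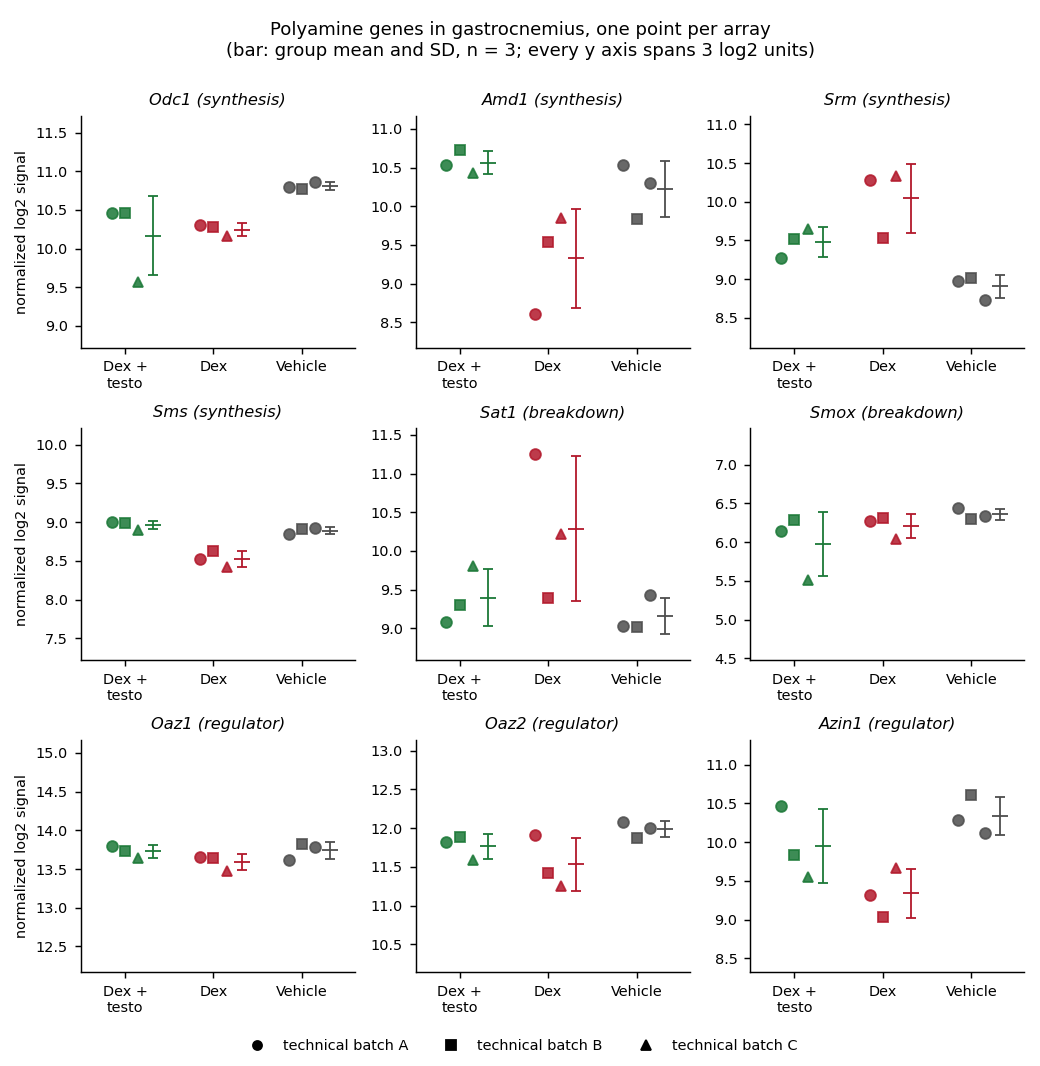
Normalized log2 signal of each gene's brightest probe set, with 1 point per array, the group mean and SD (n = 3), and the technical batch as the point's shape. Every y axis spans 3 log2 units. Srm was higher and Azin1 lower in all 3 dexamethasone arrays than in any vehicle array, and Amd1 was higher in all 3 dexamethasone plus testosterone arrays than in any dexamethasone array.

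Before the single genes, some arrays need description. The deposited signals and the control RNAs added to the samples divide the arrays into 3 technical batches. Batch A holds vehicle replicates 1 and 3 and replicate 1 of both hormone-treated groups, batch B holds replicate 2 of each group, and batch C holds replicate 3 of both hormone-treated groups. In the 2 arrays of batch C the Gapdh signal at the 3′ end was 4.94 and 6.22 times that at the 5′ end, against 1.06 to 1.17 times in the other 7, a measure commonly used for RNA quality. Batch C has no vehicle array. All 6 fibre markers listed to check the tissue (Ckm, Acta1, Myh4, Myh2, Tnnt3 and Mb) were measured. The log2 of their summed linear signal lay between 17.24 and 17.42 in the 9 arrays. Quantile normalization brings such bright probe sets to like values in all arrays, so the narrow range does not test the tissue. Myh2 was 12.71 in dexamethasone plus testosterone replicate 1, against 14.22 to 14.78 in the other arrays. In whole muscle, fewer cells of a type and less RNA per cell cannot be told apart.

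Among the enzymes of synthesis, Srm stood farthest from vehicle under dexamethasone alone. It encodes spermidine synthase, which turns putrescine into spermidine, and lies at chr5:164309002-164312203 (rat build GRCr8). Srm had 9.27, 9.52 and 9.65 in dexamethasone plus testosterone replicates 1 to 3, against 10.28, 9.53 and 10.33 in dexamethasone replicates 1 to 3 and 8.98, 9.01 and 8.74 in vehicle replicates 1 to 3. Both hormone-treated groups lay above every vehicle array, and dexamethasone replicate 2 lay within the range of the animals that also received testosterone.

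The mean of Srm was 10.05 ± 0.44 under dexamethasone, against 8.91 ± 0.15 in vehicle (SD, n = 3 each). The log2 change was 1.14 ± 0.25 (SE, 95% interval 0.58 to 1.69), which missed the threshold (limma, adjusted p = 0.0665). Within batch A it was 1.42 and within batch B 0.52, and batch C has no vehicle array. Over 19 alternative settings the change ran from 0.998 to 1.39 and the adjusted p from 0.0257 to 0.24. It passed in 3 of the 19, with adjusted p of 0.0257 to 0.036. Arrays that do not overlap in this direction were found for 12.5% of all probe sets tested. With testosterone added Srm averaged 9.48 ± 0.20, which was lower than under dexamethasone alone by a log2 change of -0.57 ± 0.25 (SE, adjusted p = 0.444) and higher than vehicle by 0.57 ± 0.25 (SE, adjusted p = 0.815). From high to low the groups ran dexamethasone, dexamethasone plus testosterone, vehicle, and neither neighbouring pair differed by the test.

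The promoter table of RefSeq (GRCr8), with windows of 300 bases that begin 250 bases before each gene start, held 8 of the 9 genes; Azin1 had no entry. It was searched on both strands for CACGTG, the E-box that Myc and its partners bind, and for the glucocorticoid and androgen receptor motif as a single arm, AGAACA, and as the full palindromic response element, which contains that arm. CACGTG was found in 2 of the 8 windows, those of Srm and Oaz1, against 6.42% of all 33469 windows. AGAACA was found in 0 of 8, against 20.7% of all, and the full palindrome in 0 of 8, against 0.0149%. A match describes the letters of the window and is no evidence of binding. The stretches of Srm and Oaz1 that hold the E-box follow, with CACGTG in capitals, together with the last bases before the Amd1 start that this table uses, which lies inside the annotated span of the gene and not at its outer end. Amd1 was the one of the 9 genes with the largest difference between the hormone-treated groups, and its window holds none of these motifs. The stretches of Srm, Oaz1 and Amd1 are chr5:164308752-164308871 (plus strand), chr7:9537121-9537240 (minus strand) and chr20:45265983-45266102 (minus strand), each of 120 bases and read 5′ to 3′ towards the start.
Srm: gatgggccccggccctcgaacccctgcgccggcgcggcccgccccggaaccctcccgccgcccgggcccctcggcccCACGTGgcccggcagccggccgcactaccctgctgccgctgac
Oaz1: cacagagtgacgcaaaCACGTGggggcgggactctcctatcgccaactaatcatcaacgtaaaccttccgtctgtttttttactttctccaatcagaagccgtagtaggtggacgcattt
Amd1: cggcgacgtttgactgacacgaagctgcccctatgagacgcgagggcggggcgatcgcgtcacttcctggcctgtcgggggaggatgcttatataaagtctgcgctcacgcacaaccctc

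Amd1 was lowest under dexamethasone alone. It encodes S-adenosylmethionine decarboxylase, which supplies the aminopropyl groups for spermidine and spermine, and lies at chr20:45250289-45324939. Amd1 had 10.53, 10.73 and 10.43 in dexamethasone plus testosterone replicates 1 to 3, against 8.61, 9.53 and 9.85 in dexamethasone replicates 1 to 3 and 10.53, 9.83 and 10.30 in vehicle replicates 1 to 3. All 3 animals with both hormones lay above all 3 with dexamethasone alone, while dexamethasone replicate 3 lay within the vehicle range.

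The mean of Amd1 was 10.56 ± 0.15 with both hormones and 9.33 ± 0.64 with dexamethasone alone (SD, n = 3 each), a log2 change of 1.23 ± 0.32 (SE; 95% interval 0.51 to 1.96). This was 2.35-fold and missed the threshold (limma, adjusted p = 0.188). Arrays that do not overlap in this direction were found for 7.24% of all probe sets tested. Over the 19 alternatives the change ran from 0.87 to 1.56 and the adjusted p from 0.0935 to 0.383. Dexamethasone alone differed from vehicle (mean 10.22 ± 0.36) by -0.89 ± 0.32 (SE, adjusted p = 0.226), and both hormones differed from vehicle by 0.34 ± 0.32 (SE, adjusted p = 0.9). Dexamethasone replicate 1 was the lowest of the 9 arrays, and the difference from vehicle was -1.80 in its batch (A) but -0.30 in batch B.

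Odc1 encodes ornithine decarboxylase, the rate-limiting enzyme that makes putrescine, and lies at chr6:46058439-46065148. It had 10.46, 10.46 and 9.57 in dexamethasone plus testosterone replicates 1 to 3, against 10.31, 10.27 and 10.16 in dexamethasone replicates 1 to 3 and 10.79, 10.77 and 10.86 in vehicle replicates 1 to 3. Every hormone-treated array lay below every vehicle array, and the array with both hormones in batch C was the lowest of all 9.

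The log2 change of Odc1 between dexamethasone and vehicle was -0.56 ± 0.25 (SE; 95% interval -1.12 to 0.00; limma, adjusted p = 0.324), or by batch -0.52 (A) and -0.50 (B). Arrays that do not overlap in this direction were found for 10.4% of all probe sets tested. Both hormones differed from vehicle by -0.64 ± 0.25 (SE, adjusted p = 0.815), or by batch -0.37 (A) and -0.31 (B). They differed from dexamethasone alone by -0.08 ± 0.25 (SE, adjusted p = 0.949). The last value has no settled sign, since by batch it was 0.15 (A), 0.19 (B) and -0.58 (C). It was 0.21 without dexamethasone plus testosterone replicate 3. Vehicle was the highest group, and the hormone-treated groups did not differ beyond their spread.

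Sms encodes spermine synthase, which turns spermidine into spermine, and lies at chrX:41331693-41387713. Its brighter probe set had 8.996, 8.985 and 8.90 in dexamethasone plus testosterone replicates 1 to 3, against 8.53, 8.63 and 8.42 in dexamethasone replicates 1 to 3 and 8.84, 8.91 and 8.92 in vehicle replicates 1 to 3. The dexamethasone arrays lay below all 6 others, and the remaining groups overlapped.

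These were small differences with a small spread. Sms was higher with both hormones than with dexamethasone alone by a log2 change of 0.43 ± 0.16 (SE, limma, adjusted p = 0.362) and by batch 0.47 (A), 0.35 (B) and 0.48 (C). It was lower with dexamethasone than with vehicle by a log2 change of -0.36 ± 0.16 (SE, adjusted p = 0.319), or by batch -0.36 (A) and -0.28 (B). Both hormones and vehicle were 0.07 ± 0.16 apart (SE; 95% interval -0.29 to 0.43; adjusted p = 0.954).

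**Figure D2:**
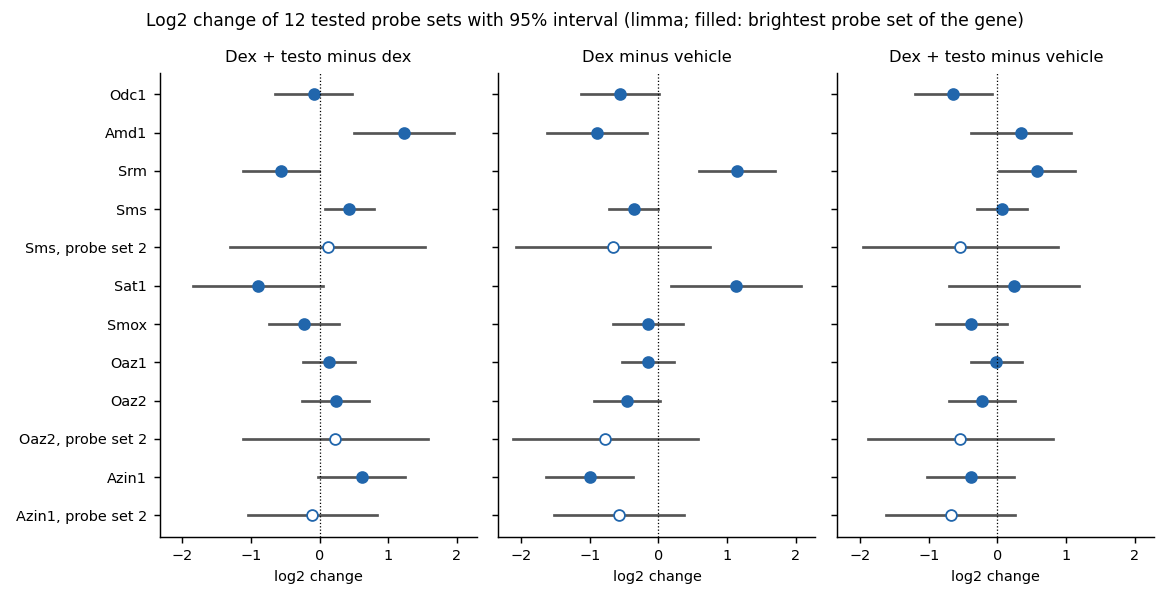
Log2 change of the 12 tested probe sets with its unadjusted 95% interval from limma, for dexamethasone plus testosterone minus dexamethasone (left), dexamethasone minus vehicle (middle) and dexamethasone plus testosterone minus vehicle (right). Filled points are the brightest probe set of a gene and open points the second one; Srm at 1.14 and Amd1 at 1.23 were the largest changes in the middle and left panels.

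Of the enzymes of breakdown, Sat1 varied most. It encodes spermidine/spermine acetyltransferase, which acetylates polyamines for oxidation or export, and lies at chrX:44008089-44011376. Sat1 had 9.08, 9.30 and 9.80 in dexamethasone plus testosterone replicates 1 to 3, against 11.26, 9.39 and 10.22 in dexamethasone replicates 1 to 3 and 9.03, 9.02 and 9.43 in vehicle replicates 1 to 3. Dexamethasone replicates 1 and 3 were the highest of the 9 arrays, and dexamethasone replicate 2 lay within the vehicle range.

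The log2 change of Sat1 between dexamethasone and vehicle was 1.13 ± 0.42 (SE; 95% interval 0.18 to 2.08; limma, adjusted p = 0.236). By batch it was 2.03 (A) and 0.37 (B). With both hormones Sat1 differed from dexamethasone alone by -0.89 ± 0.42 (SE, adjusted p = 0.489) and by batch -2.18 (A), -0.09 (B) and -0.42 (C), and from vehicle by 0.24 ± 0.42 (SE, adjusted p = 0.942). Both differences were largest in batch A, which holds dexamethasone replicate 1. Without that array the change from vehicle was 0.65 (adjusted p = 0.497), and without dexamethasone replicate 2 it was 1.58 (adjusted p = 0.0987).

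Smox encodes spermine oxidase, which turns spermine back into spermidine, and lies at chr3:139184793-139220174. Its signal was close to the filter on dim probe sets, which stood at 5.75, with 6.15, 6.29 and 5.51 in dexamethasone plus testosterone replicates 1 to 3, against 6.27, 6.32 and 6.04 in dexamethasone replicates 1 to 3 and 6.44, 6.30 and 6.34 in vehicle replicates 1 to 3. The log2 change was -0.15 ± 0.23 between dexamethasone and vehicle (SE, limma, adjusted p = 0.798), -0.23 ± 0.23 between both hormones and dexamethasone (SE, adjusted p = 0.796) and -0.38 ± 0.23 between both hormones and vehicle (SE, adjusted p = 0.849). The lowest array was again the one with both hormones in batch C.

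The antizymes Oaz1 and Oaz2 bind ornithine decarboxylase and send it to the proteasome, and both also limit polyamine uptake. Their production is controlled in translation by a frameshift that polyamines promote, which the transcript level does not show. Oaz1, at chr7:9534530-9536990, had 13.80, 13.73 and 13.65 in dexamethasone plus testosterone replicates 1 to 3, against 13.65, 13.64 and 13.48 in dexamethasone replicates 1 to 3 and 13.61, 13.82 and 13.79 in vehicle replicates 1 to 3. All groups overlapped.

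Its log2 change was -0.15 ± 0.17 between dexamethasone and vehicle (SE; 95% interval -0.52 to 0.22; limma, adjusted p = 0.716), 0.14 ± 0.17 between both hormones and dexamethasone (SE, adjusted p = 0.846) and -0.01 ± 0.17 between both hormones and vehicle (SE, adjusted p = 0.995).

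Oaz2, at chr8:75094817-75108634, had 11.82, 11.89 and 11.58 in dexamethasone plus testosterone replicates 1 to 3, against 11.92, 11.43 and 11.25 in dexamethasone replicates 1 to 3 and 12.08, 11.88 and 12.003 in vehicle replicates 1 to 3, by its brighter probe set. Dexamethasone replicate 1 reached the vehicle range and the other dexamethasone arrays did not. The log2 change was -0.46 ± 0.21 between dexamethasone and vehicle (SE, limma, adjusted p = 0.352), or by batch -0.12 (A) and -0.45 (B). It was 0.23 ± 0.21 between both hormones and dexamethasone (SE, adjusted p = 0.769), and -0.22 ± 0.21 between both hormones and vehicle (SE, adjusted p = 0.9).

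Azin1 encodes the antizyme inhibitor, a relative of ornithine decarboxylase that has no enzyme activity and frees the decarboxylase from antizyme. It lies at chr7:71539711-71566515. Its brightest probe set had 10.47, 9.84 and 9.54 in dexamethasone plus testosterone replicates 1 to 3, against 9.32, 9.03 and 9.66 in dexamethasone replicates 1 to 3 and 10.29, 10.61 and 10.12 in vehicle replicates 1 to 3. The dexamethasone arrays lay below all vehicle arrays, and the animals with both hormones spread over both ranges.

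Azin1 was the member farthest below vehicle under dexamethasone. The mean was 9.34 ± 0.31 under dexamethasone, against 10.34 ± 0.25 in vehicle (SD, n = 3 each), which was 2-fold lower. The log2 change of -1.0004 ± 0.28 (SE; 95% interval -1.63 to -0.37) missed the threshold (limma, adjusted p = 0.129), and by batch it was -0.88 (A) and -1.58 (B). Over the 19 alternatives the adjusted p ran from 0.0664 to 0.31. With both hormones Azin1 differed from dexamethasone alone by 0.61 ± 0.28 (SE, adjusted p = 0.473) and by batch 1.15 (A), 0.81 (B) and -0.12 (C), and from vehicle by -0.39 ± 0.28 (SE, adjusted p = 0.881).

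The 3 genes with more than 1 probe set allowed a comparison of readings of the same gene. The second probe set of Sms had 7.41, 7.82 and 5.11 in dexamethasone plus testosterone replicates 1 to 3, against 7.08, 7.01 and 5.88 in dexamethasone replicates 1 to 3 and 7.26, 7.25 and 7.45 in vehicle replicates 1 to 3. Both batch C arrays were the lowest here, at -2.21 and -1.44 from the vehicle mean, where the brighter probe set stood at 0.01 and -0.47. The second probe set of Oaz2 was also lowest in both, with 10.11, 9.94 and 8.01 in dexamethasone plus testosterone replicates 1 to 3, against 9.57, 9.79 and 8.02 in dexamethasone replicates 1 to 3 and 10.01, 9.998 and 9.68 in vehicle replicates 1 to 3.

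The second probe set of Azin1 had 10.28, 9.41 and 8.29 in dexamethasone plus testosterone replicates 1 to 3, against 9.59, 9.42 and 9.29 in dexamethasone replicates 1 to 3 and 9.83, 10.16 and 10.03 in vehicle replicates 1 to 3. As with the brightest one, every dexamethasone array lay below every vehicle array, at a log2 change of -0.57 ± 0.42 (SE, limma, adjusted p = 0.56). Between both hormones and dexamethasone it stood at -0.11 ± 0.42 (SE, adjusted p = 0.963), a sign opposite to that of the brightest probe set. By group means, the second probe sets of Sms and Oaz2 kept the sign of the brighter ones in that comparison (0.12 ± 0.63 and 0.23 ± 0.60). They also kept it in that of dexamethasone with vehicle (-0.66 ± 0.63 and -0.77 ± 0.60). Within batch C, however, they had the opposite sign between both hormones and dexamethasone, at -0.77 for Sms and -0.02 for Oaz2. The third probe set of Azin1 averaged 4.84 and was not tested. The part of RNA quality in the batch C values was not tested.

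**Figure D3:**
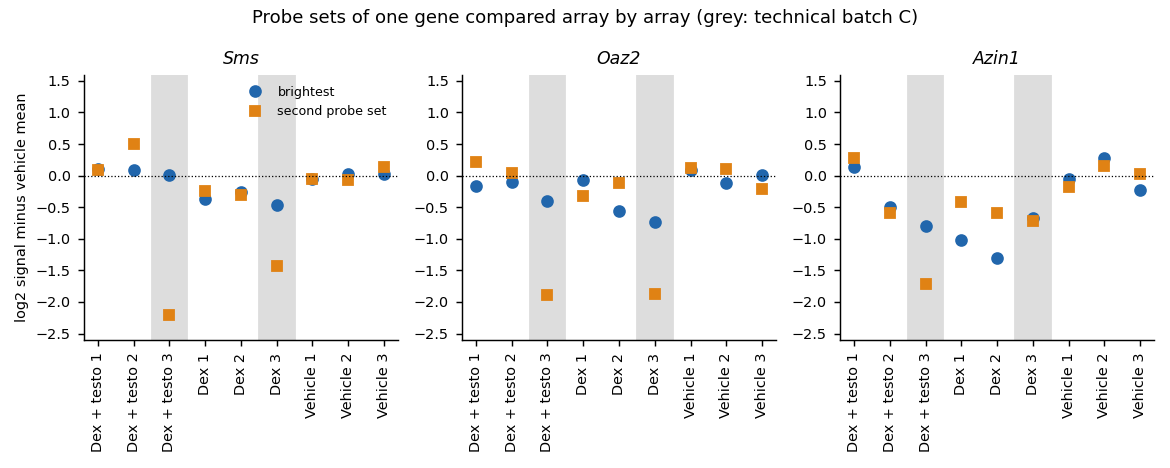
Log2 signal minus the vehicle mean in each of the 9 arrays for both tested probe sets of Sms, Oaz2 and Azin1, with the batch C arrays shaded. The second probe sets of Sms and Oaz2 lay at -2.21 to -1.44 in the shaded arrays, and the brighter ones at -0.74 to 0.01.

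Within batches, the differences with the same sign in each batch that could be measured were as follows, by the brightest probe set of each gene. Each difference sets single arrays against each other, save for the vehicle mean of batch A. The share of all probe sets with equal signs was not counted, so these lists carry no test. Between dexamethasone and vehicle, batches A and B had the same sign for all genes but Smox. Between both hormones and dexamethasone, all 3 batches had the same sign for Amd1, Srm, Sms, Sat1, Smox and Oaz1. There Smox was at only -0.03 in batch B, and the second probe set of Sms was at -0.77 in batch C. By batch the Amd1 difference was 1.91 (A), 1.20 (B) and 0.59 (C). That of Srm was -1.01, -0.01 and -0.68, so that in batch B it was close to 0.

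**Figure D4:**
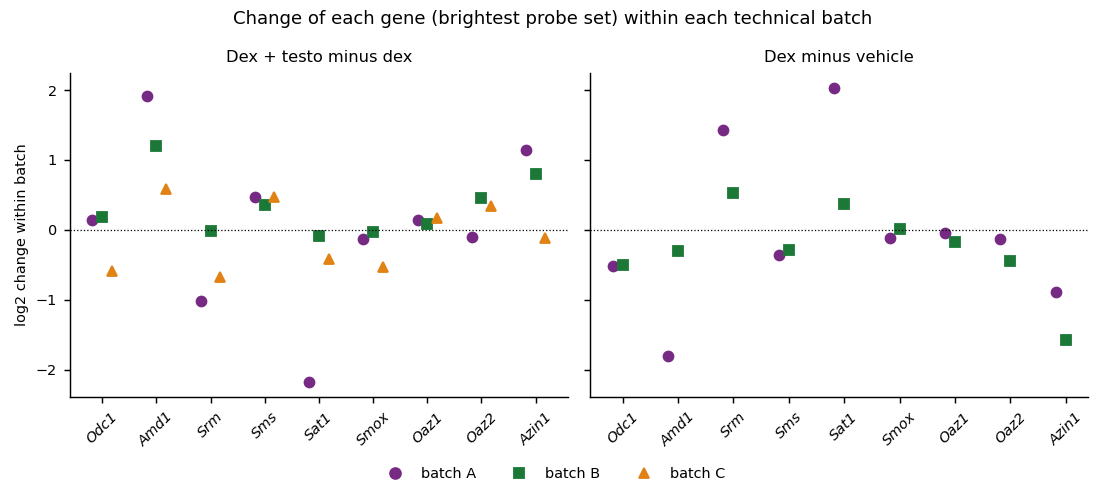
Log2 change of each gene's brightest probe set within each technical batch, for dexamethasone plus testosterone minus dexamethasone (left; batches A, B and C) and dexamethasone minus vehicle (right; batches A and B). Amd1 and Sms lay above 0 in all 3 batches on the left, and Odc1, Amd1, Sms and Azin1 lay below 0 in both batches on the right.

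Differences between 2 genes on the same array, set to 0 at the vehicle mean, show how far the genes diverged. These pairs were chosen after the values were seen and carry no test. Srm relative to Sms was 0.25, 0.52 and 0.73 in dexamethasone plus testosterone replicates 1 to 3, against 1.74, 0.89 and 1.89 in dexamethasone replicates 1 to 3 and 0.12, 0.08 and -0.20 in vehicle replicates 1 to 3. The 3 groups did not overlap in this measure. Amd1 relative to Srm was -0.05, -0.11 and -0.53 in dexamethasone plus testosterone replicates 1 to 3, against -2.98, -1.32 and -1.79 in dexamethasone replicates 1 to 3 and 0.24, -0.49 and 0.25 in vehicle replicates 1 to 3. The dexamethasone arrays lay below all others.

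Azin1 relative to Oaz1, the inhibitor relative to its target, was 0.07, -0.49 and -0.70 in dexamethasone plus testosterone replicates 1 to 3, against -0.93, -1.21 and -0.41 in dexamethasone replicates 1 to 3 and 0.08, 0.19 and -0.27 in vehicle replicates 1 to 3. Dexamethasone lay below vehicle in every array, and the animals with both hormones overlapped both groups. Odc1 relative to Oaz1 was -0.41, -0.34 and -1.14 in dexamethasone plus testosterone replicates 1 to 3, against -0.41, -0.43 and -0.38 in dexamethasone replicates 1 to 3 and 0.11, -0.12 and 0.01 in vehicle replicates 1 to 3. Both hormone-treated groups lay below vehicle. These measures compare changes and do not show which gene of a pair moved.

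Of 28 other genes of polyamine supply, salvage, transport, control and use, 27 were on the array and 21 were bright enough to be tested. Between dexamethasone and vehicle 2 of the 21 rose and 0 fell, and their median log2 change was 0.11. They were Arg2 and Oat. The share called over all probe sets in that comparison was 1.05%. Between both hormones and dexamethasone 0 of the 21 passed, with 7 at an unadjusted p under 0.05 (limma), against 0.113% and 11% of all. Between both hormones and vehicle 0 passed, with 3 at an unadjusted p under 0.05 (limma), against 0% and 6.12% of all.

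Arg2, the mitochondrial arginase that makes ornithine from arginine, had 6.31, 6.77 and 8.47 in dexamethasone plus testosterone replicates 1 to 3, against 11.01, 9.33 and 9.30 in dexamethasone replicates 1 to 3 and 5.58, 6.44 and 4.76 in vehicle replicates 1 to 3. Every dexamethasone array lay above the 6 others. It rose under dexamethasone by a log2 change of 4.28 ± 0.67 over vehicle (SE, limma, adjusted p = 0.0324). The vehicle mean of 5.60 lay under the filter value of 5.75, so Arg2 was tested through its treated arrays, and the size of the change depends on the pseudocount. It was 4.997 with a pseudocount of 1 (adjusted p = 0.0532) and 3.32 with 64 (adjusted p = 0.0129). Adding testosterone gave -2.70 ± 0.67 relative to dexamethasone alone, which did not pass (SE, adjusted p = 0.164).

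Oat, the ornithine aminotransferase that takes ornithine towards glutamate and proline, had 11.17, 11.17 and 11.44 in dexamethasone plus testosterone replicates 1 to 3, against 11.52, 11.73 and 11.93 in dexamethasone replicates 1 to 3 and 10.58, 10.74 and 10.68 in vehicle replicates 1 to 3. The 3 groups did not overlap. Oat rose under dexamethasone by a log2 change of 1.06 ± 0.18 over vehicle (SE, limma, adjusted p = 0.0367), and it was -0.47 ± 0.18 with both hormones relative to dexamethasone alone (SE, adjusted p = 0.399). The Arg2 call was lost in 10 of 19 alternatives and the Oat call in 13 of 19, both with the direction kept. Both were lost with technical batch as a factor (adjusted p = 0.061 for Arg2 and 0.0522 for Oat) and with the replicate block (0.0641 and 0.0595). With 1 array left out, Arg2 had log2 changes of 3.72 to 4.71, and the call was lost without any vehicle array, dexamethasone replicate 1 or 2, or replicate 2 of the group with both hormones (adjusted p = 0.0603 to 0.151). Oat had 0.96 to 1.16, and its call was lost without any vehicle or dexamethasone array or replicate 2 of the group with both hormones (adjusted p = 0.0589 to 0.156).

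Among the supply genes that did not pass was Mat2a, the methionine adenosyltransferase whose product Amd1 consumes. It stood at a log2 change of -0.57 ± 0.19 between dexamethasone and vehicle (SE, limma, adjusted p = 0.184) and 0.47 ± 0.19 between both hormones and dexamethasone (SE, adjusted p = 0.402) by its brightest probe set. Its other probe sets had the opposite sign in the second comparison, at -0.24 in one that was tested and -0.42 in one too dim for the test. Mat2b, its regulatory subunit, was at -0.02 ± 0.16 and 0.08 ± 0.16 in those comparisons.

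In salvage and acetylation, 0 of 7 genes passed. Sat2, a relative of Sat1, was at 0.57 ± 0.22 between dexamethasone and vehicle (SE, limma, adjusted p = 0.243) and at -0.88 ± 0.22 between both hormones and dexamethasone (SE, adjusted p = 0.161), where it was lower in every array. Paox, which oxidizes acetylated polyamines, was at 0.71 ± 0.41 between dexamethasone and vehicle (SE, adjusted p = 0.456). Adi1, an enzyme of methylthioadenosine salvage, was at -0.50 ± 0.20 in that comparison (SE, adjusted p = 0.264) and at 0.48 ± 0.20 between both hormones and dexamethasone (SE, adjusted p = 0.413).

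Spermidine is also the donor for hypusine, a modified residue of the translation factor eIF5A. None of the 4 hypusine genes tested passed by limma, with 0 at an unadjusted p under 0.05 between dexamethasone and vehicle. The enzymes Dhps and Dohh stood at -0.01 ± 0.19 and 0.20 ± 0.20 there (SE), and Eif5a at -0.79 ± 0.50 (SE, adjusted p = 0.496), or by batch -0.40 (A) and -0.23 (B). By their brightest probe sets, the 5 transport genes tested had log2 changes of 0.11 to 0.61 between dexamethasone and vehicle, and 0 passed. The largest was that of Atp13a2, a lysosomal polyamine exporter, at 0.61 ± 0.27 (SE, adjusted p = 0.331). A second tested probe set of Slc7a1, 1 of these genes, was at -0.18 there, against 0.24 for its brightest.

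Myc, a transcription factor known to bind E-boxes of polyamine genes in mammalian cells, had 6.17, 6.66 and 5.80 in dexamethasone plus testosterone replicates 1 to 3, against 7.34, 7.06 and 7.36 in dexamethasone replicates 1 to 3 and 6.34, 6.59 and 6.41 in vehicle replicates 1 to 3. The dexamethasone arrays were the 3 highest. The log2 change was 0.81 ± 0.24 between dexamethasone and vehicle (SE, limma, adjusted p = 0.146) and -1.04 ± 0.24 between both hormones and dexamethasone (SE, adjusted p = 0.134), and neither passed.

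**Figure D5:**
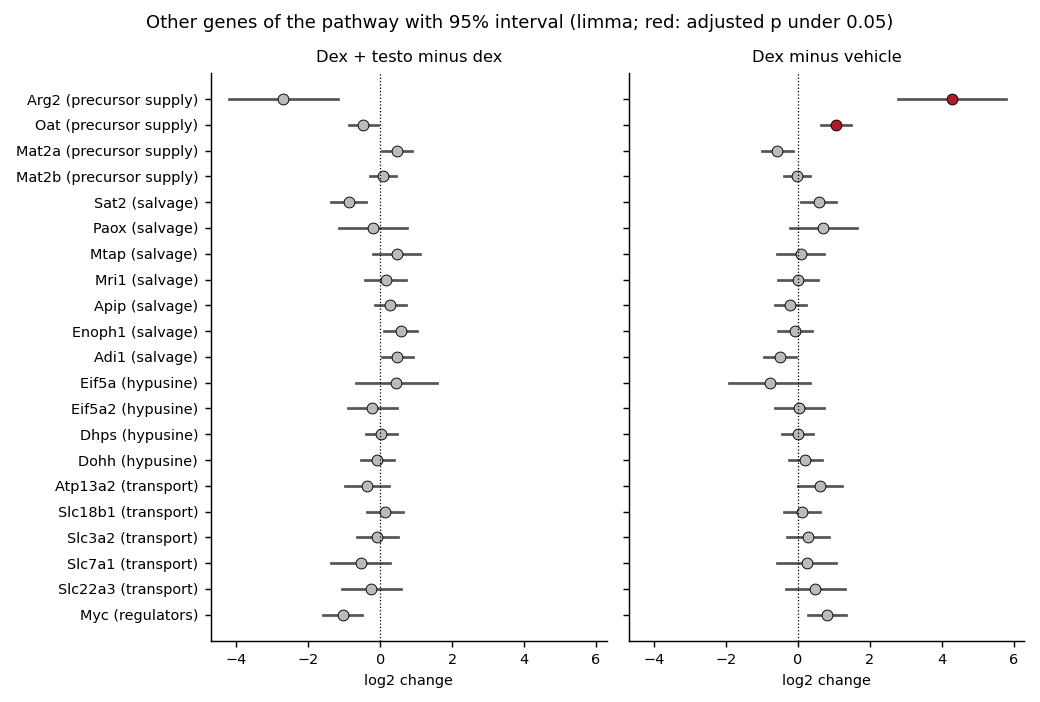
Log2 change of 21 other genes of the pathway with its unadjusted 95% interval from limma, for dexamethasone plus testosterone minus dexamethasone (left) and dexamethasone minus vehicle (right). Arg2 at 4.28 and Oat at 1.06 (red) passed the threshold in the right panel, and no gene passed in the left panel.

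Genes with the most similar pattern were sought for Odc1, Amd1 and Smox among 10419 tested genes, by Pearson's r of the log2 signal over the 9 arrays. The 9 arrays share batches and treatments, so the values describe likeness and no more. For Amd1 they were Synj2bp (0.973), Slc16a6 (0.972) and the creatine transporter gene Slc6a8 (0.958). Slc6a8 had 11.09, 11.38 and 11.33 in dexamethasone plus testosterone replicates 1 to 3, against 10.24, 10.78 and 10.98 in dexamethasone replicates 1 to 3 and 11.31, 11.09 and 11.19 in vehicle replicates 1 to 3, with all dexamethasone arrays lowest.

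For Odc1 they were Mtch1 (0.977), the transcription factor gene Jund (0.956) and Igf2r (0.954), and for Smox they were Rhoc (0.936), Ahcyl1 (0.93) and Ap2m1 (0.927). In each of these 6 the dexamethasone plus testosterone array of batch C was the lowest of the 9, as it was for Odc1 and Smox.

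Markers of other cells in the muscle were measured on the same arrays. Of 6 fibroblast markers, all tested, 1 fell under dexamethasone (Mfap5), and their median log2 change from vehicle was -2.32. The log2 of their summed linear signal, which the brightest markers dominate, was 13.29 to 14.67 in the group with both hormones. It was 11.87 to 13.71 under dexamethasone and 14.48 to 15.09 in vehicle. Of 4 endothelial markers, 3 were on the array, and 0 passed. The log2 of their summed linear signal was 10.27 to 10.39 with both hormones, 10.35 to 10.51 with dexamethasone and 10.65 to 10.89 with vehicle. The 2 blood markers on the array, of 3, had 11.43 to 12.57 in this measure with both hormones. They had 10.22 to 12.18 with dexamethasone and 12.40 to 12.91 with vehicle, and 0 passed. The macrophage markers (5 of 5 on the array) had 8.95 to 10.08 in this measure with both hormones. They had 8.85 to 10.36 with dexamethasone and 9.69 to 9.92 with vehicle, and 0 passed in any comparison. No marker on the array was listed at 0. Their part in the values of the polyamine genes was not tested.

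Some of the genes have near copies in the rat genome. The annotation names 10 pseudogenes of Odc1, 3 of Amd1, 2 of Sms and 2 of Oaz1, and whether the probe sets also read transcripts of these was not tested.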

How the data were processed

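The deposited values are linear intensities, a signal for each probe set on each array. The array and the labelling protocol are given by the labels (an Affymetrix rat genome array, standard protocol), and the signal algorithm is not given in the sources used here. Of the arrays, 5 share a trimmed mean of 500 and the other 4 do not (113.3 to 206.8), so the arrays were brought to one distribution here. After leaving out 57 control probe sets, log2(intensity + 16) went through quantile normalization (limma 3.58.1, R 4.3.3), and probe sets with a mean under the 40th percentile (5.75) were not tested. A mean per group was fitted over all 9 arrays (lmFit, eBayes). Changes are on the log2(intensity + 16) scale, which understates those of dim probe sets. The number of arrays limits the precision, and p-values rest on the spread between the arrays of a group. That spread joins differences between single animals with those between technical batches. The fit was tested on simulated data with independent arrays and no technical batches, so that test does not cover the batches described here.

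Symbols came from the platform annotation, updated by gene ID to GRCr8; 20826 probe sets had 1 symbol, 436 several and 9780 none here. A gene stands by its brightest probe set over the 9 arrays. All 9 genes are named whatever their result. Other pathway genes come from a list and are named where they passed, with up to 3 per class given as values. The genes, the lists, the tests and the technical batches were chosen with earlier results of these data known. The alternatives tried were pseudocount, scaling, filter, replicate block, batch, variance model, arrays in the fit and leaving out each array.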

Additional observations from a re-analysis of the deposited data

How the results depend on the processing

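Over 19 alternatives, 497 of 510 recomputed changes of the 9 genes kept their direction and their side of the threshold, 3 passed and 10 turned sign. The 3 were Srm between dexamethasone and vehicle, so that 1 polyamine probe set passed there in place of 0 with a pseudocount of 64 (adjusted p = 0.036), a filter at the 60th percentile (0.0347) or an intensity trend with robust variance (0.0257), by limma. The sign turned for Oaz1, Odc1 and Smox. The change in the fit reported here stands in brackets after each comparison. Oaz1 between both hormones and vehicle (-0.01) was at 0.0466 with scaling, 0.0317 with batch as a factor and 0.0272 without batch C. With 1 array left out it was at -0.0778 to 0.0272 (above 0 without vehicle replicate 2 or 3 or both-hormone replicate 3). Odc1 between both hormones and dexamethasone (-0.08) was at 0.1678 without batch C. With 1 array left out it was at -0.2315 to 0.2122 (above 0 without both-hormone replicate 3). Smox between dexamethasone and vehicle (-0.15) was at 0.005 with batch as a factor. Between both hormones and dexamethasone (-0.23) Smox was at -0.382 to 0.0069 with 1 array left out (above 0 without both-hormone replicate 3). Smox was not tested under the filter at the 60th percentile.

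Over all probe sets, 196 passed between dexamethasone and vehicle. The count was 54 with a pseudocount of 1, 414 with 64, 48 with no filter, 469 with a filter at the 60th percentile, 444 without batch C, 510 with an intensity trend and robust variance, 123 with the arrays of both groups alone, and 1 to 333 with 1 array left out (1 or 2 without a vehicle array, 3, 10 and 333 without dexamethasone replicates 1, 2 and 3, and 49 without both-hormone replicate 2). Between both hormones and dexamethasone, 21 passed, and the counts in that order were 5, 102, 0, 83, 0, 149, 0 and 0 to 68 (68 without dexamethasone replicate 3, 5 or fewer without any other array). Between both hormones and vehicle 0 passed under each alternative. With the replicate block 13 passed between dexamethasone and vehicle and 0 between both hormones and dexamethasone, and 0 polyamine probe sets passed. With batch as a factor the counts were 179 and 22. The replicate numbers coincide with the technical batches except for vehicle replicate 3. The deviations of 9 same-numbered pairs correlated at -0.201 to 0.587, 5 of them over 0.1, against -0.537 to 0.352 for pairs with different numbers. These values do not settle whether the numbers pair the animals, and the fit reported here did not take them as a pairing. The cause of the differences between settings was not tested. Probe sets near the dim end, such as Smox, are limited by their signal over background.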
